A study of Mus musculus with 8 samples.

Results

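The 10 genes described here are the core of the circadian clock: Arntl (which encodes BMAL1), Clock, Per1, Per2, Per3, Cry1, Cry2, Nr1d1 (REV-ERB alpha), Nr1d2 (REV-ERB beta) and Dbp. They were picked by symbol from a table of 35199 genes, and all 10 were found in it and passed the expression filter that left 12849 genes. The comparison asked whether muscarinic blockade was accompanied by other clock gene levels in tuft cells, and whether the 8 libraries carried a common clock pattern that could reflect the time at which each mouse was collected. That time is not given in the sources used here.

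Tuft cells, the chemosensory cells of the gut epithelium, were sorted as live, EPC-high, ZSgreen-positive cells from the small intestine of Dclk1-DTR-ZSgreen mice, a BAC transgenic line whose reporter is driven by Dclk1 regulatory sequence. All mice carried this transgene and were 8 to 10 weeks old at pump implantation. There were 2 groups of 4 mice each. One received scopolamine, a nonselective muscarinic receptor antagonist, at 0.5 mg per kg per day by osmotic pump for 7 days, and the sham group received sodium chloride for the same 7 days. Each library came from 1 mouse and from 3000 or 4000 sorted cells. Mouse IDs began with M for scopolamine 1 to 3 and sham 1, and with N for scopolamine 4 and sham 2 to 4. What the letter stands for is not given in the sources used here, and it was unevenly spread over the groups, so a comparison of treatment within a letter has 1 mouse on one side. The letter was therefore also used as a covariate. Replicate numbers are names only.

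Total estimated counts ran from 14343362 to 20857433 in the scopolamine libraries and from 25769940 to 41428916 in sham, so every sham library was deeper and depth cannot be told apart from treatment. At these depths 3 counts corresponded to 0.0729 to 0.212 CPM (counts scaled to the size of the library), taken as the floor. Sham 1 and sham 3 were made from less RNA with more amplification cycles than the other 6 libraries. All 12 tuft cell markers examined had counts in every library, and Dclk1 ran from 3432 to 5725 CPM. Summed markers of other cells were also present: enterocyte markers at 2642 to 7246 CPM, enteroendocrine markers at 178.5 to 1177 CPM and lymphocyte markers at 2.09 to 136.9 CPM. In these bulk libraries fewer expressing cells and less RNA per cell cannot be told apart.

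The clock is a feedback loop that runs in most cells of the body, including the gut epithelium. BMAL1 and CLOCK bind E-boxes and activate Per, Cry, Nr1d and Dbp genes; PER and CRY proteins then repress BMAL1 and CLOCK, while the REV-ERB receptors repress Arntl through AGGTCA elements and DBP activates genes through D-boxes. As a result Arntl peaks nearly opposite to Nr1d1 and Dbp in most mouse tissues, and the Per genes peak after Dbp. Because of this order, mice collected at different times differ in these genes in a known pattern.

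The sequences below show letter matches to clock elements before transcript starts of member genes. The loop acts through elements of these kinds, and whether these matches are bound was not tested. RefSeq promoter windows of GRCm38.p6, from 250 bases before to 50 after a transcript start, were found for 9 of the 10 members, all but Per2. Both strands were searched for the E-box CACGTG, the D-box TTANGTAA, the receptor element AGGTCA and the cAMP element TGACGTCA. Shown are the 250 bases before the start for Per1 (chr11:69098699-69098948, plus strand), Per3 (chr4:151044666-151044915, minus strand) and Cry1 (chr10:85185055-85185304, minus strand), 5′ to 3′, because these hold the E-boxes and D-boxes that were found. Matches are in capitals.
Per1: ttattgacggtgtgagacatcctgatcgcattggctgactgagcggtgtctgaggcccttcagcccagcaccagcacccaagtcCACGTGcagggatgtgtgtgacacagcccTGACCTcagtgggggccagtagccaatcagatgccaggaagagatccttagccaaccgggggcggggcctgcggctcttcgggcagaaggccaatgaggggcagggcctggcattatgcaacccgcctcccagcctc
Per3: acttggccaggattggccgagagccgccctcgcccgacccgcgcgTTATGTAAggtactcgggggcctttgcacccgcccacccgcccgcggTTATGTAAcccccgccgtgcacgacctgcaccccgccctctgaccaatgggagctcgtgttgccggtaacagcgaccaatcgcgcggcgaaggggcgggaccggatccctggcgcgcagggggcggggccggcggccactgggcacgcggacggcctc
Cry1: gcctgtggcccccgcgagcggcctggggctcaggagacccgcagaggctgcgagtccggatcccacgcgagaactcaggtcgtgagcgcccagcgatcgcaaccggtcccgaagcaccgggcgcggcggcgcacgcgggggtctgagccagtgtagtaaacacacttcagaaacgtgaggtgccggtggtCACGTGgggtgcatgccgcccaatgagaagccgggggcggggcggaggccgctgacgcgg
The capitals mark an E-box 166 bases and a receptor element (read on the other strand, TGACCT) 137 bases before the start used for Per1. They also mark 2 D-boxes (TTATGTAA) 205 and 158 bases before that of Per3, and an E-box 60 bases before that of Cry1. The Per1 window shown lies inside the gene span given below, before an internal transcript start. The other of the 2 Per1 windows held 0 matches. Receptor elements also lay in the window of Nr1d2 (77 bases before the start), in 1 of 3 windows of Clock (119 before) and in 1 of 2 of Arntl (32 after). That Clock window also lies inside the gene span. No match to these 4 motifs was found in the windows of Cry2, Nr1d1 or Dbp. An E-box was present in 7.15% of all 32851 windows, a D-box in 2.32%, a receptor element in 16.3% and a cAMP element in 1.79%. A match describes the letters in this window only.

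All 10 genes were measured at low to moderate levels. Per kilobase of exon, the mean CPM over the 8 libraries was highest for Cry2 (4.38), followed by Cry1 (3.20), Dbp (3.01), Arntl (2.71) and Nr1d1 (2.38), and lower for Per1 (0.929), Per3 (0.914), Clock (0.828), Per2 (0.633) and Nr1d2 (0.525). Genes next to each other in this order did not differ beyond the spread over libraries (exact sign-flip permutation test over 8 libraries for 9 neighbouring pairs, Benjamini-Hochberg adjusted p of 0.422 to 0.945). These pairs were set by the order in the same libraries, and genes farther apart in it were not tested. The widest step was from Nr1d1 to Per1, held in 7 of 8 libraries (exact p = 0.0469, adjusted 0.422). The coefficient of variation over the 8 libraries ran from 27.7% for Cry1 to 91.1% for Nr1d2.

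**Figure D1:**
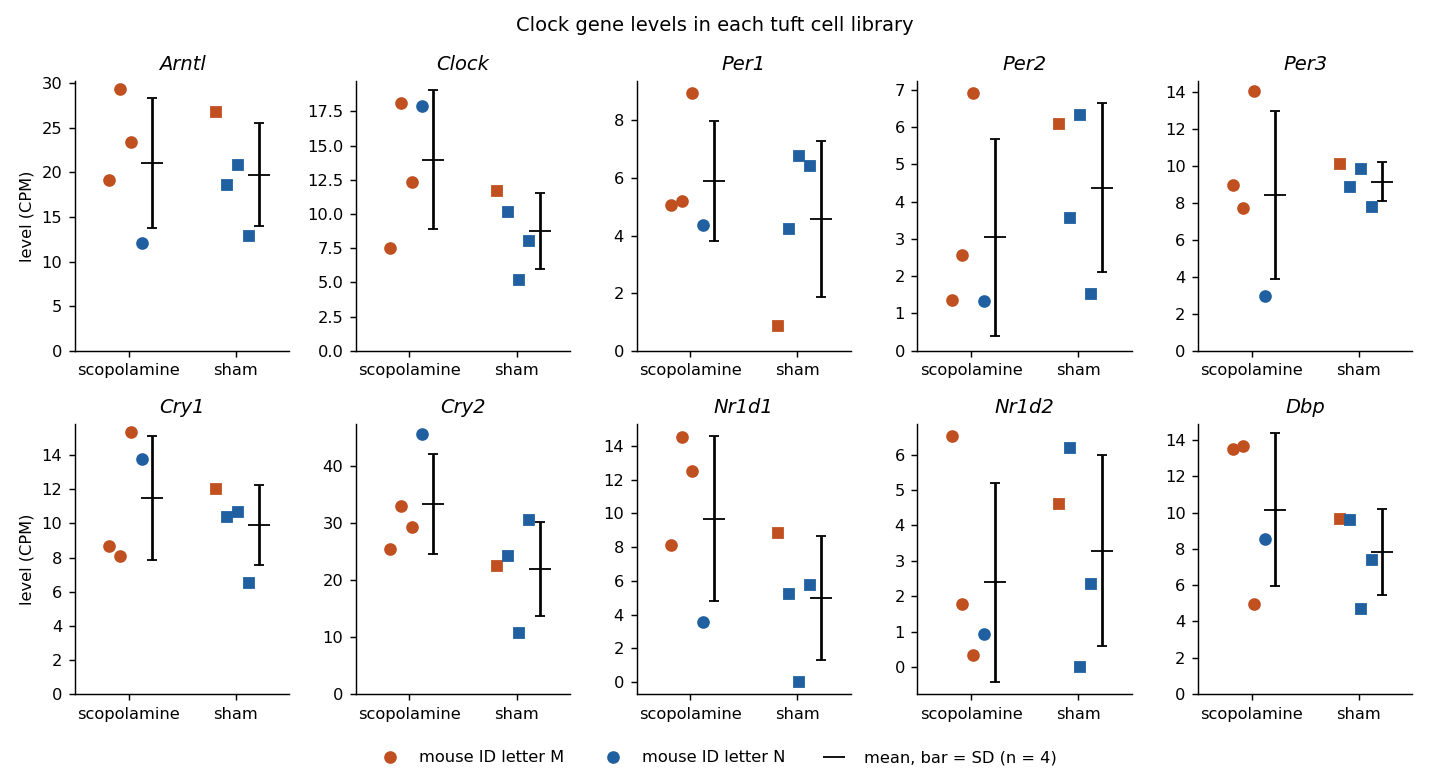
Level of each clock gene in CPM (vertical axes, which differ in scale) in the 4 scopolamine (circles) and 4 sham libraries (squares), coloured by mouse ID letter, with the group mean and SD beside the points. The groups overlap for every gene, and the sham library at the bottom of the Nr1d1 and Nr1d2 panels is sham 3.

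Arntl (chromosome 7, 113207465 to 113314126 on the plus strand, GRCm38) encodes the activator BMAL1. It was measured at 19.2, 29.4, 23.4 and 12.1 CPM in scopolamine 1 to 4 and at 26.8, 18.6, 20.8 and 12.8 CPM in sham 1 to 4. The lowest library of each group was nearly the same and the groups overlapped throughout. The scopolamine mean was 21.02 ± 7.27 CPM (SD, n = 4). The sham mean was 19.7 ± 5.76 CPM (SD, n = 4). The fold was 1.07 with a 95% interval of 0.616 to 1.84 (edgeR, Benjamini-Hochberg adjusted p = 0.989). Clock (chromosome 5, 76209868 to 76304792, minus strand), whose protein pairs with BMAL1, was measured at 7.51, 18.1, 12.3 and 17.9 CPM with scopolamine and at 11.7, 10.1, 5.20 and 8.06 CPM in sham. Here 3 of the 4 scopolamine libraries lay above every sham library and scopolamine 1 lay among them. The log2 fold change was 0.67 ± 0.45 (SE), a fold of 1.60 with an interval of 0.801 to 3.18 (edgeR adjusted p = 0.851).

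The Per genes encode the rhythmic repressors of the loop, and Per1 and Per2 also respond acutely to cAMP and glucocorticoid signals. Per1 (chromosome 11, 69095217 to 69109960, plus strand) was measured at 5.06, 5.19, 8.96 and 4.35 CPM with scopolamine and at 0.871, 4.23, 6.76 and 6.42 CPM in sham. Sham 1, one of the lower-input libraries, was the only one below 4 CPM. Per2 (chromosome 1, 91415982 to 91459324, minus strand) was measured at 1.35, 2.57, 6.91 and 1.32 CPM with scopolamine and at 6.10, 3.57, 6.32 and 1.52 CPM in sham. Its high and low libraries were found in both groups, and the direction turned with the lower-input libraries: the log2 fold change was -0.53 ± 0.80 (SE) with all libraries and 0.24 without those 2. Per3 (chromosome 4, 151003652 to 151044665, minus strand) was measured at 8.97, 7.72, 14.0 and 2.98 CPM with scopolamine and at 10.1, 8.87, 9.83 and 7.76 CPM in sham. The sham libraries were close together, whereas the scopolamine libraries held both the highest and the lowest value. The folds of Per1, Per2 and Per3 were 1.29, 0.694 and 0.921, with intervals of 0.444 to 3.74, 0.204 to 2.36 and 0.414 to 2.05 (edgeR adjusted p = 0.963, 0.941 and 0.991). The log2 fold change of Per1, 0.36, was 0.01 without sham 1 and 1.21 with the letter as a covariate. With that covariate those of Per2 and Per3 were -1.13 and -0.77, and without scopolamine 3 that of Per2 was -1.32.

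The cryptochromes are the stronger repressors of BMAL1 and CLOCK. Cry1 (chromosome 10, 85131700 to 85185064, minus strand) was the least variable member, at 8.67, 8.10, 15.4 and 13.8 CPM with scopolamine and 12.04, 10.4, 10.7 and 6.54 CPM in sham. Its fold was 1.16 with an interval of 0.606 to 2.22 (edgeR adjusted p = 0.965). Cry2 (chromosome 2, 92403646 to 92434043, minus strand) was measured at 25.6, 33.0, 29.4 and 45.7 CPM with scopolamine and at 22.5, 24.3, 10.8 and 30.6 CPM in sham. Every scopolamine library was above 3 of the sham libraries, and sham 4 lay among them. The difference in Cry2 was the nearest of the 10 to a threshold, with a log2 fold change of 0.60 ± 0.34 (SE), a fold of 1.52 and an interval of 0.900 to 2.56 (edgeR adjusted p = 0.817). The exact permutation test of its mean log2 CPM gave p = 0.0857, where the smallest p that 4 against 4 allow is 0.0286. The log2 fold change was 0.26 without the lower-input sham libraries, 0.29 with input as a covariate, 0.37 without sham 3 and 0.40 without scopolamine 4, and it was 0.71 with limma-voom, 0.72 with the letter as a covariate and 0.80 without sham 4.

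Nr1d1 and Nr1d2 encode the REV-ERB repressors of Arntl, and Nr1d1 is among the most rhythmic transcripts of mouse tissues. Nr1d1 (chromosome 11, 98767932 to 98775333, minus strand) was measured at 8.12, 14.6, 12.5 and 3.55 CPM with scopolamine and at 8.86, 5.25, 0.0248 and 5.76 CPM in sham. The value in sham 3 is 1 count, below the floor of 0.0743 CPM, while the other 7 libraries held 75 to 311 counts. Nr1d2 (chromosome 14, 18204054 to 18239127, minus strand) was measured at 6.51, 1.78, 0.353 and 0.945 CPM with scopolamine and at 4.62, 6.18, 0 and 2.36 CPM in sham. Sham 3 had 0 counts of it, which allows a level of up to 0.0743 CPM (the floor of 3 counts), and scopolamine 3 had 5. Such gaps were most frequent in the lower-input libraries. Of the 8461 genes with at least 3 CPM in the other 7 libraries, 33 (0.39%) had 0 or 1 count in sham 3, and by the same count 16 of 8288 genes (0.193%) did so in sham 1. In each of the other libraries 1 to 5 genes did so. The part of RNA input in the Nr1d1 and Nr1d2 values was not tested.

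The fold was 1.95 for Nr1d1 with an interval of 0.391 to 9.70, and 0.731 for Nr1d2 with an interval of 0.0915 to 5.84 (edgeR adjusted p = 0.909 and 0.980). The log2 fold change of Nr1d1 was 0.96 in this fit, 2.45 with limma-voom, 0.18 with the letter as a covariate and 0.55 without sham 3. That of Nr1d2 was -0.45, and it was 0.88 with limma-voom, -1.12 with the letter as a covariate and -1.67 without scopolamine 1. Both intervals hold folds well below and well above 1. Nr1d1 shares 263 exon bases with Thra on the opposite strand, which was measured at 32.9 to 40.4 CPM with scopolamine and at 18.9 to 30.5 CPM in sham (log2 fold change 0.60 ± 0.24, SE, edgeR adjusted p = 0.812). Strand use in counting is not stated, so reads could be shared. Dbp (chromosome 7, 45705088 to 45710203, plus strand), a D-box activator and a direct output of the loop, was measured at 13.5, 13.7, 4.94 and 8.56 CPM with scopolamine and at 9.65, 9.60, 4.68 and 7.37 CPM in sham. Scopolamine 1 and 2 were high and the other 6 libraries overlapped. Its fold was 1.30 with an interval of 0.605 to 2.80 (edgeR adjusted p = 0.926). Dbp shares 539 exon bases with Sphk2 on the opposite strand, which was measured at 57.3 to 120.6 CPM. Cry2 shares 295 exon bases with D930015M05Rik on the opposite strand, which was not among the counted genes. The same limit on shared reads holds for Dbp and Cry2.

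Across the 10 members, 0 had an adjusted p under 0.1 in edgeR, where 0.0% of the 12849 genes did, and 0 had an unadjusted p under 0.05, where 5.99% of all genes did. With DESeq2 on all genes with any count, which called 1.31% of the genes given an adjusted p, 0 members were called and the lowest unadjusted p among them was 0.0837. No member had groups that did not overlap, against 3.88% of all genes. The point estimates were higher with scopolamine for 7 members and lower for 3, with a median log2 fold change of 0.29 beside -0.01 over all genes tested. A p above the threshold does not show that these levels were equal, and the upper bounds of the fold ran from 1.84 for Arntl to 9.70 for Nr1d1. Estimates for marker lists leaned with treatment as well: all 12 enterocyte markers and all 10 goblet and Paneth markers had higher estimates with scopolamine (4 and 1 with an unadjusted p under 0.05, none called). They summed to 3389 to 7246 and 688.3 to 3521 CPM with scopolamine, and to 2642 to 6805 and 337.7 to 1346 CPM in sham. Of the enteroendocrine markers past the filter 8 had higher and 3 lower estimates, of the lymphocyte markers 7 and 1, and of the tuft cell markers 1 and 11, with none called and a tuft cell median of -0.14 on the log2 scale. Their part in the clock gene values was not tested.

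**Figure D2:**
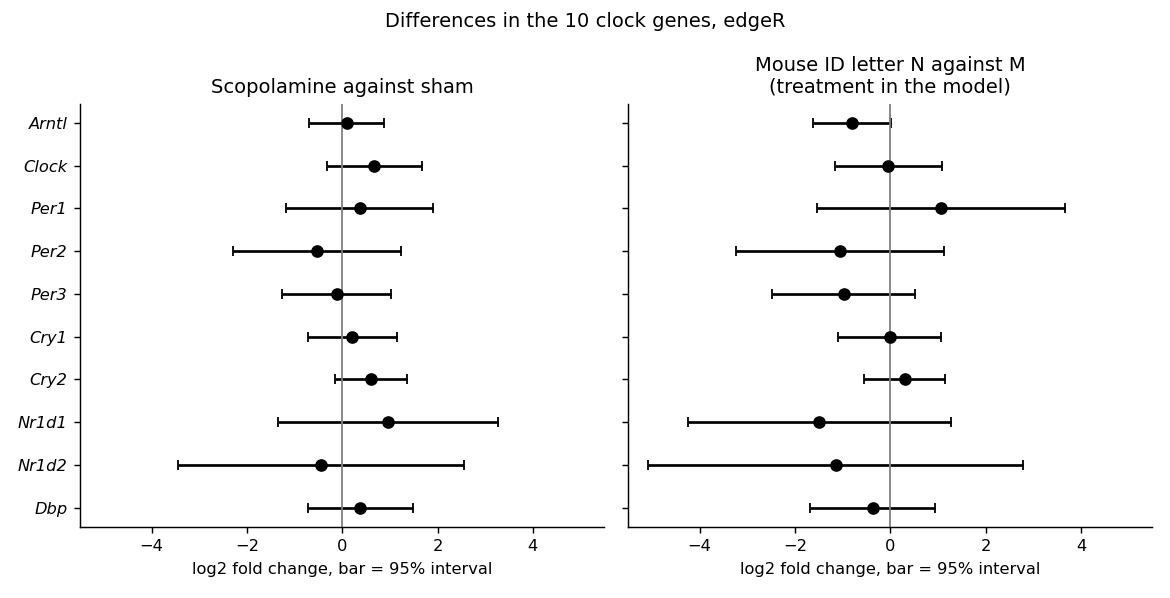
Log2 fold change of each clock gene (horizontal axis) with its 95% interval from edgeR, for scopolamine against sham (left) and for mouse ID letter N against M with treatment in the model (right). All intervals on the left cross 0, and on the right Arntl lies nearest to a difference, at -0.80.

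Of 22 other clock genes, 19 passed the filter (Rora, Rorb and Ciart did not), 7 with a higher and 12 with a lower estimate, with a median log2 fold change of -0.15. None was called. Among the largest estimates were Timeless (-0.90 ± 0.69, SE), a replication fork protein related to a fly clock gene, and Hlf (0.84 ± 1.40, SE), a D-box activator whose highest level was 2.995 CPM (edgeR adjusted p = 0.870 and 0.950).

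Per1 and Per2 also respond to glucocorticoid and to immediate early signals, so genes of both responses were examined. Of 8 glucocorticoid-responsive genes, 7 passed the filter and none was called. Cdkn1a, a cell cycle inhibitor, had a log2 fold change of -0.40 ± 0.17 (SE), and Sgk1, a kinase, one of 2.51 ± 1.62 (SE), with edgeR adjusted p of 0.812 and 0.844. Errfi1, a feedback inhibitor of EGF receptor, had one of -0.30 ± 0.32 (SE). Of 12 immediate early genes, 9 passed the filter, 8 with a higher estimate with scopolamine, and none was called by edgeR. DESeq2 on all genes with any count called 2 that the filter had removed, Nr4a1 and Arc (adjusted p = 0.000347 and 0.013), named here after their values were seen. Nr4a1, an orphan nuclear receptor, had 7, 208, 198 and 10 counts with scopolamine and 0, 4, 1 and 4 in sham. Arc, a synaptic plasticity gene, had 0, 222, 92 and 1 counts with scopolamine and at most 1 in each sham library, so its high values lay in scopolamine 2 and 3. Fos was measured at 10.9, 80.8, 80.6 and 18.7 CPM with scopolamine and at 23.3, 5.81, 1.61 and 7.22 CPM in sham, a log2 fold change of 2.34 ± 0.83 (SE, edgeR adjusted p = 0.812). Atf3 and Egr1 had log2 fold changes of 2.29 ± 1.06 and 1.25 ± 0.71 (SE).

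By mouse ID letter, 8 of 10 members had a lower estimate in N than in M, with a median log2 fold change of -0.59 beside 0.01 over all genes. None was called (0.0156% of all genes were), and 0 had an unadjusted p under 0.05 (4.97% of all genes did). Arntl came nearest, at 19.2 to 29.4 CPM in the 4 M libraries and 12.1 to 20.8 CPM in the 4 N libraries, a log2 fold change of -0.80 ± 0.36 (SE, edgeR adjusted p = 0.942). Nr1d1 was the one member whose letters did not overlap, at 8.12 to 14.6 CPM in M and 0.0248 to 5.76 CPM in N, where 4.19% of all genes did not overlap. Its log2 fold change was -1.49 ± 1.23 (SE, edgeR adjusted p = 0.948). Per1 went the other way at 1.07 ± 1.16 (SE), an estimate that rested on sham 1 and was -0.57 without it.

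Of the 19 other clock genes past the filter, 3 had an unadjusted p under 0.05 by letter and none was called. Bhlhe40, which encodes the E-box repressor DEC1, and Tef, a D-box activator, were lower in N, by log2 fold changes of -1.50 and -0.89, and Btrc, a subunit of the ligase that degrades PER proteins, was higher at 1.30. Other gene groups leaned one way with the letter, with none of their genes called. All 9 immediate early genes past the filter were lower in N, 6 of them with an unadjusted p under 0.05, and their list summed to 956.4 to 1391 CPM in M and 653.9 to 825.1 CPM in N. The 8 lymphocyte markers summed to 29.5 to 136.9 CPM in M and 2.09 to 25.1 CPM in N, and all 12 enterocyte markers had lower estimates in N. Of the tuft cell markers 10 had lower and 2 higher estimates in N, with a median log2 fold change of -0.26. Of the goblet and Paneth markers 7 had lower and 3 higher estimates in N. The 11 enteroendocrine markers past the filter all had higher estimates in N, with a median log2 fold change of 1.72. Sums of the whole enteroendocrine list overlapped between the letters, at 277.2 to 840.9 CPM in M. In N they were 1112 CPM in scopolamine 4 and 178.5, 1177 and 268.5 CPM in sham 2 to 4. Whether these groups bear on the clock gene values by letter was not tested.

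Covariation was examined on log2 CPM (prior count 2) over the 8 libraries. Of the 45 pairs of members, 23 had a positive and 22 a negative Pearson r, with a median absolute r of 0.337. An absolute r of at least 0.707 was reached by 4 pairs (8.89%), where 6.89% of all 82541976 pairs of genes reached it. These were Clock and Cry2, Nr1d2 and Dbp, Cry2 and Nr1d1, and Nr1d1 and Nr1d2. By the exact permutation test over 40320 pairings, 3 pairs had a p under 0.05 and none an adjusted p under 0.1, the lowest adjusted p over the 45 pairs being 0.207 for r and 0.623 for rho. Letters hold 4 libraries each, too few for a correlation within them.

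**Figure D3:**
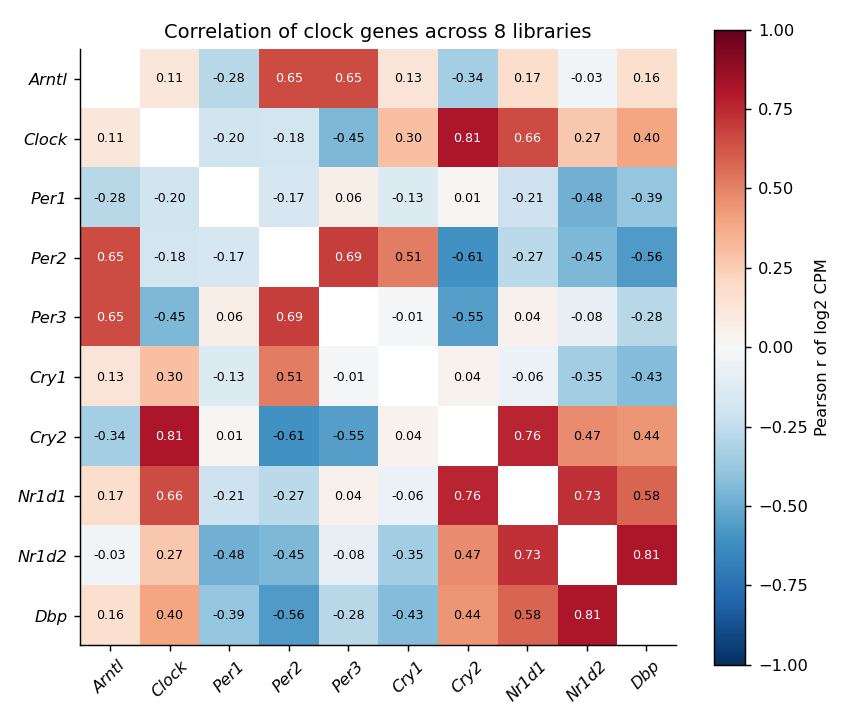
Pearson r of log2 CPM for each pair of the 10 clock genes across the 8 libraries, red for positive and blue for negative. The strongest values are 0.81 for Clock with Cry2 and for Nr1d2 with Dbp, and Arntl is near 0 with Nr1d1, Nr1d2 and Dbp.

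Per2 and Per3, which peak close together in most tissues, had an r of 0.69 (exact permutation p = 0.00603, adjusted 0.207) and a rho of 0.81 (exact p = 0.0218, adjusted 0.623), and the r was 0.72 without scopolamine 3 and 4, the libraries farthest from the median of Per2. Nr1d2 and Dbp, both driven by E-boxes, had an r of 0.81 (exact permutation p = 0.0138, adjusted 0.207) and a rho of 0.69 (exact p = 0.0694, adjusted 0.623). The r of Nr1d2 and Dbp fell to 0.29 without scopolamine 3 and sham 3, the libraries farthest from the median of Nr1d2. With each library left out in turn it ran from 0.69 to 0.90. Clock and Cry2 had an r of 0.81 (exact permutation p = 0.0111, adjusted 0.207) and a rho of 0.69 (exact p = 0.0694, adjusted 0.623), with an r of 0.63 without scopolamine 2 and sham 3. For Per2 and Per3 the exact permutation p was 0.134 on deviations from the group means (r = 0.66), 0.125 without the lower-input libraries (r = 0.69) and 0.0855 without scopolamine 3 (r = 0.60). Without the lower-input libraries it was 0.114 for Nr1d2 and Dbp (r = 0.71) and 0.0861 for Clock and Cry2 (r = 0.73), and for Clock and Cry2 it was 0.059 on deviations from the group means (r = 0.72). Without sham 3 the exact permutation p was 0.123 for Clock and Cry2 (r = 0.63) and 0.0843 for Nr1d2 and Dbp (r = 0.69), and without scopolamine 4 it was 0.0623 for Clock and Cry2 (r = 0.74).

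Arntl peaks far in time from the other genes set beside it here. Arntl had an r of 0.16 with Dbp, 0.17 with Nr1d1 and -0.03 with Nr1d2, with exact permutation p of 0.705, 0.653 and 0.957. Adjusted over the 45 pairs these were 0.961, 0.948 and 0.977. The rho of Arntl with Dbp was 0.33, with Nr1d1 0.71 and with Nr1d2 -0.12 (exact p = 0.428, 0.0576 and 0.793, adjusted 0.837, 0.623 and 0.900). Without scopolamine 4 and sham 4, the libraries farthest from the median of Arntl, the r values were 0.17, 0.37 and -0.04. With Per2 and Per3, Arntl had an r of 0.65 each (exact permutation p = 0.0933 and 0.0675, adjusted 0.485 for both) and a rho of 0.60 and 0.48 (exact p = 0.132 and 0.243, adjusted 0.662 and 0.802). Without scopolamine 4 and sham 4 the r with Per2 and Per3 fell to 0.23 and -0.06. With each library left out in turn it ran from 0.53 to 0.82 for Per2 and from 0.30 to 0.79 for Per3. Without scopolamine 2, Arntl and Per3 had an r of 0.79 (exact permutation p = 0.00516, adjusted 0.0774). Without that library Per2 with Per3 (r = 0.69) and Nr1d2 with Dbp (r = 0.90) also had an adjusted p of 0.0774, and without scopolamine 1 Per2 and Per3 had an r of 0.82 (adjusted 0.0357), all by the exact permutation test. Single libraries decided several of these values. Without sham 3 the r of Arntl and Nr1d1 was 0.88 (exact permutation p = 0.0117), so that over the other 7 libraries both genes were high or low together. With that library left out none of the 45 pairs passed the adjusted threshold. The r of Nr1d1 and Nr1d2 was 0.73 with all libraries and -0.19 without sham 3. That of Cry2 and Nr1d1 was 0.76 with all libraries and -0.35 without sham 3. Without scopolamine 4, Per3 and Cry1 had an r of 0.93 (exact permutation p = 0.00139, adjusted 0.0625), where all 8 libraries gave -0.01.

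**Figure D4:**
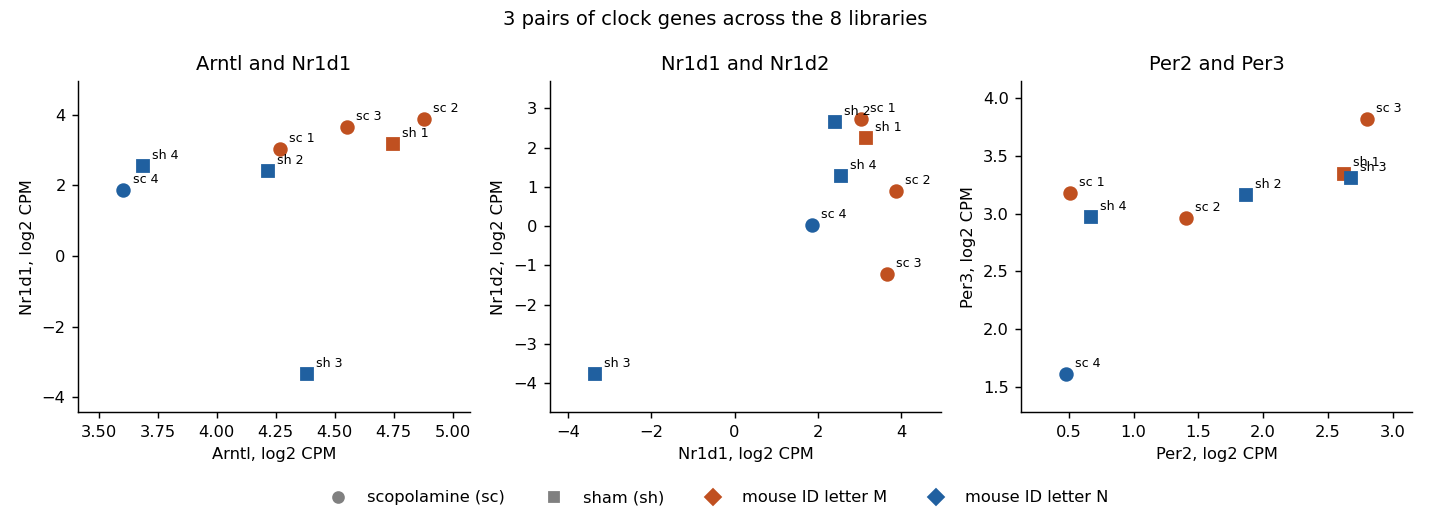
Log2 CPM of Arntl against Nr1d1, Nr1d1 against Nr1d2 and Per2 against Per3 in each library (sc, scopolamine; sh, sham), coloured by mouse ID letter. Sham 3, with 1 count of Nr1d1 and 0 of Nr1d2, stands apart in the left and middle panels, and Per2 and Per3 rise together with an r of 0.69.

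The genes whose log2 CPM followed Arntl most closely over the 8 libraries, among 9683 genes with a mean of at least 5 CPM, were Ppip5k2 (r = 0.96), Relb (0.96), Bcas3 (0.95), Dynlt1a (0.94) and Mmd (0.94). For Dbp they were Gba2 (r = 0.95), Rfx7 (0.95), Gar1 (0.94), Rpia (0.91) and Siah2 (0.91). None of these is a member or among the other clock genes listed, and with 8 libraries and 9683 genes such values describe the nearest profiles only.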

How the data were processed

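Per the labels and the study's methods, the authors converted reads with bcl2fastq 2.20, pseudoaligned them to the GRCm38 transcriptome with kallisto 0.44.0, summed transcripts to genes with tximport and deposited unnormalized estimated counts. The annotation release of that transcriptome is not given in the sources used here. Rounding to whole numbers changed 0 values. The 10 members and all lists were chosen with earlier results of these data known.

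Treatment and letter were tested with edgeR 4.0.16 (quasi-likelihood fit, TMM, filterByExpr, Benjamini-Hochberg over 12849 genes, adjusted p under 0.1) in R 4.3.3. Fold intervals are 95% intervals from that fit. As alternatives, DESeq2 1.42.0 and limma-voom (limma 3.58.1) were run, with other scalings and filters, covariates and libraries left out. DESeq2 on all genes with any count, and the count of genes near 0 in 1 library, were chosen after seeing the data. Single members were tested by two-sided exact permutation (70 assignments) of mean log2 CPM (prior count 2). CPM uses TMM-scaled totals. Floors cover counting error only. All library pairs differed beyond sampling noise (lowest chi-square per degree of freedom 67.6). Each library is 1 mouse.

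Named genes were the members, genes of the other clock, glucocorticoid and immediate early lists with an unadjusted p under 0.05 for treatment or among the 3 largest changes of a list, and the 5 nearest profiles of Arntl and Dbp. Genes named by letter (Bhlhe40, Tef, Btrc) were chosen after their values were seen. 1 gene that this rule names is not reported here. Positions are from GENCODE M21 and promoter windows from RefSeq (GRCm38.p6). Fits were tested on simulated data.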

Additional observations from a re-analysis of the deposited data

Results flagged for a closer look

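In 20 groups of 4 libraries (10 members in each treatment), 1 library stood far from the others of its group on log2 CPM, where chance gives about 1. Nr1d1 in sham 3 was at 0.0248 CPM (1 count, exact Poisson 95% interval 0.000627 to 0.138 CPM), while the other sham libraries were at 5.25 to 8.86 CPM. The gap to the nearest library was 0.885 of the group's range, above Dixon's 95% critical value for 4 samples. Sham 3 was one of the lower-input libraries and held 33 genes with 0 or 1 count that the other 7 libraries had at 3 CPM or more. The part of RNA input in this value was not tested.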

How the results depend on the processing

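No member was called between scopolamine and sham, or had an unadjusted p under 0.05, under any of the alternatives run, and none was called by letter. By letter, 1 member had an unadjusted p under 0.05 with DESeq2 and with library size only (Arntl both times) and 1 without the lower-input sham libraries (Per3), and 0 to 1 with each library left out (Arntl without sham 3, Per1 without scopolamine 4). Signs of treatment log2 fold changes turned for Nr1d2 with limma-voom (0.88), Per2 without the lower-input libraries (0.24) or with input as a covariate (0.25), Per3 with input as a covariate (0.018) and Arntl with the letter as a covariate (-0.34). With each library left out in turn, Arntl ran from -0.12 to 0.28, Per3 from -0.48 to 0.16 and Nr1d2 from -1.67 to 0.049. For the letter, signs turned without the lower-input libraries for Clock (0.49), Per1 (-0.57) and Cry1 (0.35), and leaving out each library gave -0.57 to 0.49 for Clock, -0.57 to 2.74 for Per1, -0.39 to 0.35 for Cry1 and -0.030 to 0.63 for Cry2. Pairs with an exact p under 0.05 numbered 3 with all libraries, 1 on deviations from group means, 1 without the lower-input libraries and 2 to 6 with each library left out, and pairs past the adjusted threshold 0 to 3 (3 without scopolamine 2, 1 each without scopolamine 1 or 4). The r of Arntl and Nr1d2 was 0.016 with library size only and -0.16 to 0.061 with a library left out, and that of Arntl and Dbp -0.13 to 0.34. The causes were not tested. The filter of 10 counts in every library left 8 members. No paired analysis was possible because replicate numbers were given in accession order.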

Other observations

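Fbxl21, a gene of the ligase family that acts on cryptochromes, is named here after its values were seen. It was measured at 72.5 to 110.5 CPM over the 8 libraries, a mean of 19.9 CPM per kilobase against 4.38 for Cry2, and its group means were close, with a log2 fold change of 0.04 ± 0.17 (SE, edgeR adjusted p = 0.991). Nfil3, a D-box repressor, was listed at 0 counts in sham 3, as Nr1d2 was, and ran from 1.25 to 19.6 CPM in the other 7 libraries.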
